A study of Mus musculus with 12 samples.

Results

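The difference between the late and the early effect of non-alcoholic steatohepatitis (NASH) on gene expression was measured in all 12 of the 12 kidney cortex libraries of the study, over 11614 of 11614 genes. For each gene the NASH effect, the mean of the NASH libraries minus the mean of the control libraries on the deposited log2 scale, was taken at 12 weeks and at 24 weeks. The first was then subtracted from the second. The result, the interaction, equals the change with time in NASH mice minus the change with time in control mice. A positive value therefore says that NASH kidneys stood higher against their controls late than early, and it can come from a move on either side. The side that moved is named by size alone: the side whose change with time was at least 2 times that of the other, otherwise both.

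In NASH the liver stores fat and is inflamed. C57BL/6J mice were kept for 12 or 24 weeks. Controls ate a normal diet and got corn oil; NASH mice ate a Western diet and got CCl4 (carbon tetrachloride), which poisons the liver. Each of the 4 groups has 3 libraries. Per the labels, 6 mice made up each 12-week group, and 8 control and 10 NASH mice the 24-week groups, with equal numbers of males and females. The sex behind a library, pooling of animals and the hour of dissection are not given, so p-values measure only the spread between these samples, which may be technical. Diet, CCl4 and liver disease cannot be told apart here, and neither can time on treatment and age.

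The depth estimated from the steps of the values was 7170000 to 14100000 reads per library. Replicate 1 of every group stood apart from replicates 2 and 3. Xist, the RNA that silences an X chromosome in female cells, had log2 values of 10.60 to 11.54 in the 4 libraries numbered 1 and of 2.97 to 4.86 in the other 8. Deviations from the group means correlated above 0.1 in all 18 pairs of libraries with the same number. They did so too in 12 of 12 pairs of number 2 with number 3. Each result is also given from a fit with the replicate number as an additive term (the replicate block). An SE printed beside an interaction comes from the fit without the block, unless said otherwise, and does not belong to the adjusted p with the block. The tissue label was met by its markers: 29 of 29 proximal tubule markers were measured, and Slc34a1, the sodium-phosphate cotransporter of the proximal tubule, lay at 16.33 to 16.93 in every library.

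Many genes of the kidney follow the circadian clock. BMAL1 (gene Arntl) pairs with CLOCK or NPAS2 and activates genes through E-boxes, among them the Per and Cry genes, whose proteins repress the pair, and Nr1d1 and Nr1d2 (REV-ERB), whose proteins repress Arntl, Npas2, Clock and Nfil3 through ROR elements. DBP, TEF and HLF activate genes through D-boxes, which NFIL3 represses, and these factors carry the rhythm to enzymes and transporters. The genes that BMAL1 activates and those that REV-ERB represses peak at different hours of the day.

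Promoter sequences are shown for 5 genes of the results below, since the 3 elements named above can be read in them. The windows are the 250 bases before the RefSeq start, 5′ to 3′ on the gene's strand, build GRCm38.p6. Capitals mark the E-box CACGTG, the D-box TTATGTAA and TNGGTCA, a loose form of the core of the ROR element in which N is any base. Both strands were searched with overlaps allowed. Every match to TNGGTCA is called a ROR core below, whatever its base at N. Nfil3 lies at chr13:52981040-52981289 on the minus strand, Per3 at chr4:151044666-151044915 on the minus strand, Tef (its second window) at chr15:81811164-81811413 on the plus strand, Coq10b at chr1:55052520-55052769 on the plus strand and Slc16a1 at chr3:104638414-104638663 on the plus strand.
Nfil3: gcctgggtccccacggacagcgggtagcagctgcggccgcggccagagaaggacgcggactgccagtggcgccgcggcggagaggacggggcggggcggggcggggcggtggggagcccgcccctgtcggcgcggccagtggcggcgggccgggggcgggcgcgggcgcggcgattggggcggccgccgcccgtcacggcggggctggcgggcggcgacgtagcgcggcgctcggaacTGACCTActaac
Per3: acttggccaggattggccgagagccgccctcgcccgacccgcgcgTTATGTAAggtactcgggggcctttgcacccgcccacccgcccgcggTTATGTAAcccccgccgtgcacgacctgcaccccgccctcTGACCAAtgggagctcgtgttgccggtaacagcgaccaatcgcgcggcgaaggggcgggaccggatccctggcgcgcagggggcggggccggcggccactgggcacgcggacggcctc
Tef: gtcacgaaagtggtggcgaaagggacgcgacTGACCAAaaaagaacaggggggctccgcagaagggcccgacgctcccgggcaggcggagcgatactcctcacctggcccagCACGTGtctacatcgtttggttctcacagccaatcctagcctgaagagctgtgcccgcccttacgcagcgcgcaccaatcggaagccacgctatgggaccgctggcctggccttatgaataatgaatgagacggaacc
Coq10b: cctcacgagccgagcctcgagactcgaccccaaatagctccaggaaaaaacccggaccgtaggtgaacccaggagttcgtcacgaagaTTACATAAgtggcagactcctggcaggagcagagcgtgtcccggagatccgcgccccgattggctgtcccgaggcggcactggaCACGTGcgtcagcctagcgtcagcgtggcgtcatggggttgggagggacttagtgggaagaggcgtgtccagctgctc
Slc16a1: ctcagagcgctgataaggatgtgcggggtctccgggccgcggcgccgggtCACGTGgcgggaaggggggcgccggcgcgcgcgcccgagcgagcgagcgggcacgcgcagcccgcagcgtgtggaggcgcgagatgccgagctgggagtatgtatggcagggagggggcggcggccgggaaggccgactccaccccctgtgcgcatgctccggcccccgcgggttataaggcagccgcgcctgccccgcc
Nfil3 holds 1 ROR core, close to its start, with A at N, while the ROR cores of Per3 and Tef have T there. Per3 holds 2 D-boxes and 1 ROR core, Tef an E-box and a ROR core, Coq10b a D-box and an E-box, and Slc16a1 an E-box. Of 18 genes looked up, 15 had an entry, in 19 windows, of which 4 held an E-box, 2 a D-box, 6 a ROR core and 10 none of the 3. These windows are not independent. Those of Arntl overlap and hold the same ROR cores, and each Tef window holds an E-box. Npas2, Clock, Dbp, Nr1d1 and Nr1d2 held none of the 3. Over all 32851 windows of this length the shares were 6.02% for the E-box, 0.819% for the D-box and 9.19% for the ROR core. A match describes letters and is not a shown binding site.

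Across all genes, no interaction was called by limma at an adjusted p under 0.05 without the replicate block (0 of 11614, 0%), and the smallest adjusted p was 0.565. At an unadjusted p under 0.05 there were 425 genes (3.66%), 282 above 0 (2.43%) and 143 below 0 (1.23%). With the replicate block 1 gene was called (0.00861%), and 1489 genes (12.8%) had an unadjusted p under 0.05, 1166 above 0 (10.0%) and 323 below 0 (2.78%). These shares are the background for the counts below. The called gene was Nfil3, which represses D-box genes and is itself repressed by REV-ERB. It lies outside the rule by which genes were named, since its level lies under that of the median gene, and is named here after its value was seen.

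At 12 weeks the log2 values of Nfil3 (chr13:52967209-52981039, mm10) were 8.48, 7.93 and 8.20 in the controls and 6.39, 4.29 and 5.35 in the NASH mice. At 24 weeks they were 8.01, 6.85 and 6.93 in the controls and 8.24, 6.94 and 7.76 in the NASH mice. The 12-week groups did not overlap, with every NASH library lower, while the 24-week groups overlapped, with both means between the early ones. The early NASH values of 4.29 and 5.35 came from the libraries of lowest depth, and the part of depth in them was not tested. The interaction was 3.24 ± 0.73 (SE), and 2.32, 3.73 and 3.67 within replicate numbers 1, 2 and 3, with adjusted p = 0.808 without and 0.034 with the replicate block. The NASH side moved: NASH mice gained 2.30 between 12 and 24 weeks, a rise called with the replicate block, and controls differed by -0.94, which was not called. With the block, the call of the interaction was kept in 5 of the 12 fits that left out 1 library. It was lost, at adjusted p of 0.060 to 0.222, without replicate 2 or 3 of either control group, replicate 3 of NASH at 12 weeks, or replicate 2 or 3 of NASH at 24 weeks.

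**Figure D1:**
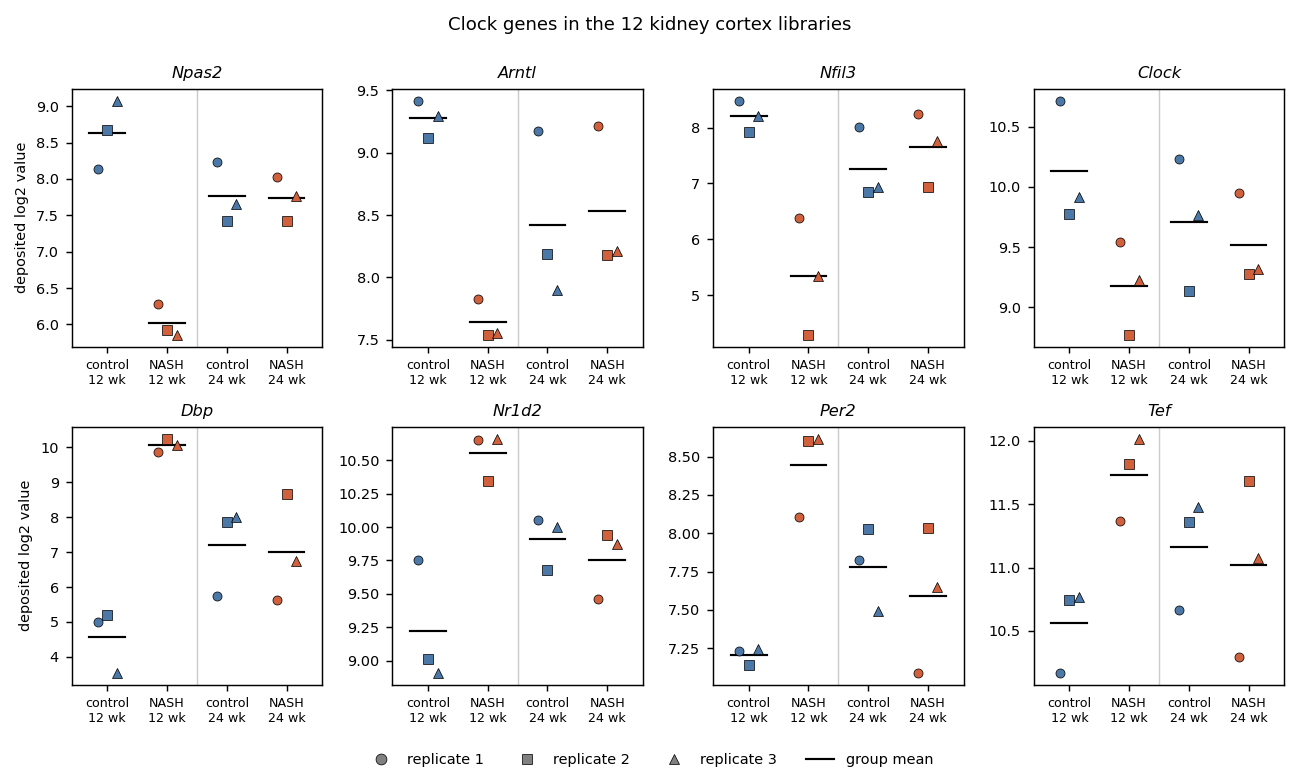
Deposited log2 values of 8 clock genes in the 12 libraries, by group (control blue, NASH orange); symbols give the replicate number and bars the group mean. At 12 weeks the NASH and control libraries are apart in all 8 genes, and at 24 weeks they overlap in all 8.

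Genes of the activating arm of the clock read lower in NASH than in controls at 12 weeks and overlapped with controls at 24 weeks. Npas2 (chr1:39194272-39363240), a partner of BMAL1, read 8.14, 8.67 and 9.08 in the controls and 6.29, 5.92 and 5.85 in the NASH mice at 12 weeks. The 24-week values were 8.23, 7.42 and 7.65 in the controls and 8.03, 7.42 and 7.77 in the NASH mice. All 3 NASH libraries were thus below all controls early, and the late groups overlapped. Its interaction was 2.58 ± 0.40 (SE), the smallest p of all genes without the block, with adjusted p = 0.565 without and 0.0739 with the replicate block, and was 1.65, 2.75 and 3.34 within the numbers.

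Arntl, which encodes BMAL1, had 12-week values of 9.42, 9.12 and 9.30 in the controls and 7.83, 7.54 and 7.55 in the NASH mice. Late values were 9.18, 8.19 and 7.90 in the controls and 9.21, 8.18 and 8.21 in the NASH mice. The early groups were apart, and the late groups overlapped, with replicate 1 high in both. The interaction was 1.75 ± 0.47 (SE) (adjusted p = 1 without and 0.0845 with the replicate block). Clock, which encodes the other partner of BMAL1, gave 0.76 ± 0.47 (SE), with an effect of -0.96 at 12 weeks and -0.19 at 24 weeks (adjusted p = 1 without and 0.174 with the replicate block). None of these genes passed the test.

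The opposite pattern was read in D-box activators and in some repressors of the loop. Dbp (chr7:45705247-45710203), a PAR bZIP factor with a large daily swing in many tissues, had values of 5.01, 5.19 and 3.54 in the controls and 9.87, 10.25 and 10.07 in the NASH mice at 12 weeks. By 24 weeks they were 5.73, 7.86 and 8.01 in the controls and 5.63, 8.65 and 6.73 in the NASH mice. The early NASH libraries were all high and tight, the early controls all low, and the late groups overlapped between them with a wide spread. The interaction of Dbp was -5.68 ± 1.10 (SE), and -4.96, -4.27 and -7.81 within the numbers (adjusted p = 0.698 without and 0.0739 with the replicate block). Both sides moved, controls by 2.62 and NASH mice by -3.06, and neither move was called.

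Nr1d2, one of the REV-ERB genes, read 9.75, 9.01 and 8.91 in the controls and 10.65, 10.35 and 10.66 in the NASH mice at 12 weeks. Its 24-week values were 10.05, 9.68 and 10.00 in the controls and 9.46, 9.94 and 9.87 in the NASH mice. Again the early groups were apart, NASH higher, and the late groups overlapped. The interaction was -1.48 ± 0.32 (SE) (adjusted p = 0.732 without and 0.134 with the replicate block). Nr1d1, the other REV-ERB gene, gave -1.35 ± 0.46 (SE) (adjusted p = 1 without and 0.258 with the replicate block), but there the control side moved, by 1.32 against -0.03 in NASH.

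Tef, another PAR bZIP factor, had early values of 10.17, 10.74 and 10.77 in the controls and 11.37, 11.82 and 12.02 in the NASH mice. Late values were 10.66, 11.36 and 11.47 in the controls and 10.30, 11.68 and 11.08 in the NASH mice. The early groups were apart with NASH higher, and the late groups overlapped. The interaction was -1.32 ± 0.48 (SE) (adjusted p = 1 without and 0.0845 with the replicate block). Per3, a Period gene, read 6.27, 6.76 and 6.44 in the controls and 7.82, 8.33 and 8.38 in the NASH mice at 12 weeks. At 24 weeks the values of Per3 were 6.71, 7.23 and 6.73 in the controls and 7.15, 7.76 and 6.82 in the NASH mice. Here too the separation of the early groups was not seen late, and the NASH side moved, by -0.94 against 0.40 in controls (interaction -1.34 ± 0.39 (SE), adjusted p = 1 without and 0.134 with the replicate block). Per2 gave an interaction of -1.43 and Cry2, which encodes a Cryptochrome repressor, -0.99, with adjusted p of 0.134 and 0.137 with the block. Not all repressors read this way. Cry1 had an interaction of 0.71, and 0.38, 0.15 and 1.60 within the numbers, with a NASH effect of -0.27 early and 0.44 late. Per1 gave -0.30. Their adjusted p were 0.506 and 0.894 with the block.

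Of 18 listed genes of the core loop 16 were measured, and of 14 clock outputs 13. In the core loop 3 members were above 0 and 6 below 0 at an unadjusted p under 0.05 with the block, against the background shares of 10.0% and 2.78%. None was called. Among the outputs 2 were above and 5 below, Nfil3 being the called one. All 13 measured outputs and 13 of 16 core genes had the same sign within all 3 replicate numbers, against 36.3% of all genes. Both lists were chosen with earlier results of these data known. Their genes share the same 12 libraries, so the members are not independent observations. The lists hold genes that move in opposite directions, so their medians, -0.06 and -0.41, lie near the middle of wide ranges (all genes 0.09). Among the 29 genes together, the libraries of the 2 groups did not overlap at 12 weeks in 19 (all genes 22.5%) and at 24 weeks in 0 (all genes 7.20%). The effect was larger in size at 12 weeks in 26 of 29, against 67.2% of all genes. Por, the reductase that feeds electrons to cytochrome P450 enzymes and a clock output, had an interaction of -0.97 ± 0.39 (SE) (adjusted p = 1 without and 0.147 with the replicate block).

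By the rule on sides, most core loop genes moved on both sides. Over the 16 core loop genes 4 had their change on the control side, 1 on the NASH side and 11 on both. For the 13 outputs the counts were 1, 5 and 7. Over all genes the shares were 35.8%, 24.0% and 40.3% in that order. In 9 of the 16 core genes and 9 of the 13 outputs both 24-week means lay between the 12-week control and NASH means, against 27.2% of all genes. The labels give no hour of dissection for any group, so the part of sampling time in these values was not tested.

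**Figure D2:**
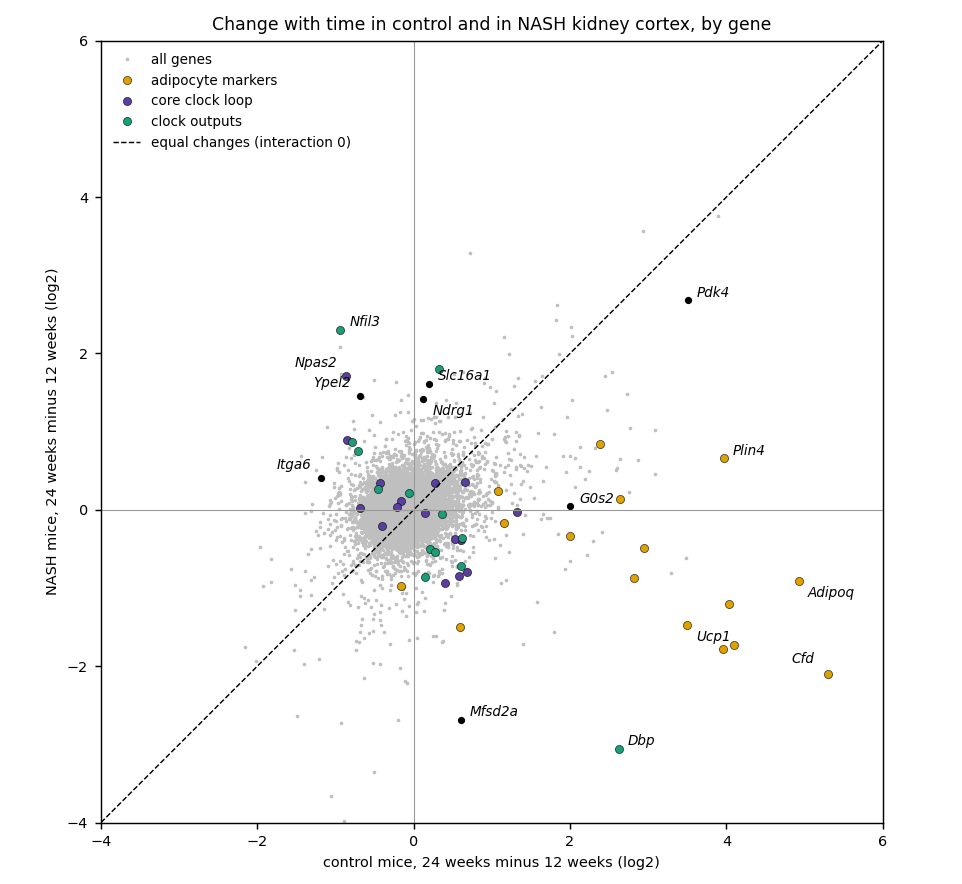
Change from 12 to 24 weeks in control mice (horizontal, log2) and in NASH mice (vertical, log2), 1 point per gene, with the clock lists and the adipocyte markers coloured and some genes named. The vertical distance from the dashed line is the interaction; Nfil3, Npas2, Slc16a1 and Ndrg1 lie above it and Dbp and the adipocyte markers below it, and Pdk4 has large values on both axes.

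Slc16a1, Ndrg1, Ypel2, Gjb2, Mfsd2a and Coq10b had the larger change with time in NASH mice. Slc16a1 (chr3:104638664-104658462) encodes MCT1, a carrier of lactate and ketone bodies. Its 12-week values were 10.79, 10.49 and 10.88 in the controls and 9.13, 8.86 and 8.44 in the NASH mice. At 24 weeks it read 10.53, 11.07 and 11.15 in the controls and 10.36, 10.37 and 10.55 in the NASH mice. The early NASH libraries were the lowest 3 of the 12, and the late groups overlapped, with 2 of the 3 NASH libraries still below every control. NASH mice rose by 1.61 with time, a call with the block, and controls differed by 0.20. The interaction was 1.41 ± 0.29 (SE) and did not pass (adjusted p = 0.698 without and 0.134 with the replicate block).

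Ndrg1 (chr15:66929318-66969641), a gene induced by hypoxia and other stresses, read 16.11, 15.87 and 16.27 in the controls and 14.87, 14.69 and 14.40 in the NASH mice at 12 weeks. At 24 weeks the values were 16.02, 16.26 and 16.34 in the controls and 15.82, 16.20 and 16.20 in the NASH mice. The early NASH libraries were again below all others and the late groups overlapped. The rise in NASH mice, 1.42, was called with the block, beside 0.12 in controls, and the interaction was 1.30 ± 0.27 (SE) (adjusted p = 0.698 without and 0.132 with the replicate block). With 1 library left out, each of the calls for Slc16a1, Ndrg1 and Nfil3 in NASH mice was kept in 5 of 12 fits and lost in 7, at adjusted p of up to 0.258. The 7 left out replicate 3 of the 12-week controls, replicate 2 or 3 of the 24-week controls, or replicate 2 or 3 of either NASH group.

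Ypel2 had early values of 9.01, 8.92 and 9.63 in the controls and 8.04, 7.16 and 7.03 in the NASH mice. Late values were 8.91, 8.15 and 8.41 in the controls and 9.18, 8.51 and 8.91 in the NASH mice. Early NASH libraries were all below the controls, and the late groups overlapped (interaction 2.15 ± 0.44 (SE), adjusted p = 0.698 without and 0.0739 with the replicate block). Gjb2, which encodes the gap junction protein connexin 26, moved the other way. It read 10.34, 10.55 and 10.25 in the controls at 12 weeks, and 10.91 to 11.27 in the 3 NASH libraries. At 24 weeks it read 10.54, 10.49 and 10.91 in the controls and 10.24, 10.28 and 10.16 in the NASH mice. NASH was above every control early and below every control late, and the interaction was -1.10 ± 0.20 (SE) (adjusted p = 0.698 without and 0.0942 with the replicate block). Of all genes, 11 (0.0947%) were apart at both times with NASH higher early and lower late, and 22 (0.189%) with NASH lower early and higher late.

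Mfsd2a, a carrier of lysophosphatidylcholine, had an interaction of -3.29 ± 0.87 (SE), with an early NASH effect of 2.63 and a late one of -0.65 (adjusted p = 1 without and 0.163 with the replicate block). Coq10b, which encodes a coenzyme Q binding protein, gave -1.01 ± 0.24 (SE) (adjusted p = 1 without and 0.164 with the replicate block). In both genes NASH libraries were above all controls at 12 weeks and overlapped them at 24 weeks. Zfp697, a zinc finger gene, was apart at both times, 9.09 ± 0.26 (SD) in controls and 8.37 ± 0.21 in NASH early, 8.29 ± 0.30 and 8.83 ± 0.16 late. Its interaction was 1.26 ± 0.27 (SE) (adjusted p = 0.732 without and 0.132 with the replicate block).

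Other genes moved on the control side. G0s2 (chr1:193272160-193273188), whose protein inhibits the fat lipase ATGL, read 7.80, 8.94 and 8.67 in the controls and 9.20, 10.10 and 9.40 in the NASH mice at 12 weeks. At 24 weeks it read 9.51, 11.10 and 10.81 in the controls and 8.50, 10.76 and 9.57 in the NASH mice. NASH was above control in every number early and below control in every number late. Controls rose by 2.01, a call with the block, and NASH mice differed by 0.05. The interaction was -1.96 ± 0.80 (SE) (adjusted p = 1 without and 0.0845 with the replicate block).

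Gpd2, the mitochondrial glycerol-3-phosphate dehydrogenase, had early values of 9.68, 9.91 and 10.02 in the controls and 10.16, 10.17 and 10.42 in the NASH mice. Late values were 10.44, 10.72 and 10.83 in the controls and 10.11, 9.94 and 10.15 in the NASH mice. The groups were apart at both times, in opposite directions. Controls rose by 0.79 (called with the block) and NASH mice differed by -0.18, for an interaction of -0.98 ± 0.20 (SE) (adjusted p = 0.698 without and 0.0739 with the replicate block).

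Slc2a5, the fructose carrier GLUT5, read 10.27, 9.76 and 9.63 in the controls and 10.85, 10.80 and 10.69 in the NASH mice at 12 weeks. At 24 weeks it read 10.82, 11.61 and 11.43 in the controls and 10.99, 10.36 and 10.05 in the NASH mice. Early NASH libraries were above all controls. The late groups overlapped through replicate 1 alone, and the interaction was -0.41, -2.30 and -2.44 within the numbers. Over all libraries it was -1.72 ± 0.37 (SE) (adjusted p = 0.732 without and 0.134 with the replicate block).

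Itga6, an integrin subunit that binds laminin, had early values of 12.25, 11.07 and 10.67 in the controls and 11.30, 9.41 and 9.30 in the NASH mice. Late values were 11.52, 9.35 and 9.55 in the controls and 11.63, 9.70 and 9.90 in the NASH mice. Replicate 1 was high in every group, so the groups overlapped at both times, while the interaction was 1.05, 2.01 and 1.72 within the numbers. Controls fell by 1.19 on the log2 scale (called with the block), NASH mice differed by 0.41, and the interaction was 1.60 ± 1.05 (SE) (adjusted p = 1 without and 0.0739 with the replicate block). Prom1, Nav2 and Nudt19 were named by p and not by the side that moved. Prom1 and Nav2 gave 1.49 and 1.47 with adjusted p of 0.0739 and 0.0739 under the block. Nudt19, a coenzyme A hydrolase higher in male than female mouse kidney, gave -1.30 (0.0891).

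With the block 20 genes were called for the change in controls (0.172%), 4 higher (0.0344%) and 16 lower (0.138%) at 24 weeks, and 3 for the change in NASH mice (0.0258%), all higher. Without the block both counts were 0, with 910 (7.84%) and 553 (4.76%) genes at an unadjusted p under 0.05. The 4 that rose in controls were G0s2, Gpd2, Plin4 and Pnpla2, and the 2 of the 16 lower genes with the smallest p were Itga6 and Tmem64. Without single libraries, each of the 4 was kept in 3 to 8 of 12 fits, at adjusted p of up to 0.227 in the other fits. Leaving out replicate 2 or 3 of either control group ended the call in all 4, and for G0s2 no other library did. The call of Gpd2 also ended without replicate 3 of NASH at 12 weeks or replicate 2 or 3 of NASH at 24 weeks, and those of Plin4 and Pnpla2 without replicate 2 or 3 of either NASH group. Pnpla2 was also lost without replicate 1 of the 12-week controls. Itga6 was lost in 7 fits, those that ended the call of Gpd2. By the rule on sides, 35.8% of all genes moved on the control side, 24.0% on the NASH side and 40.3% on both. Of the 1166 genes above 0 at an unadjusted p under 0.05 with the block, 537 were on the control side, 176 on the NASH side and 453 on both, and of the 323 below 0 the counts were 143, 76 and 104. The effect was larger at 12 weeks in 997 of the 1166 and in 235 of the 323, beside 67.2% of all genes.

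**Figure D3:**
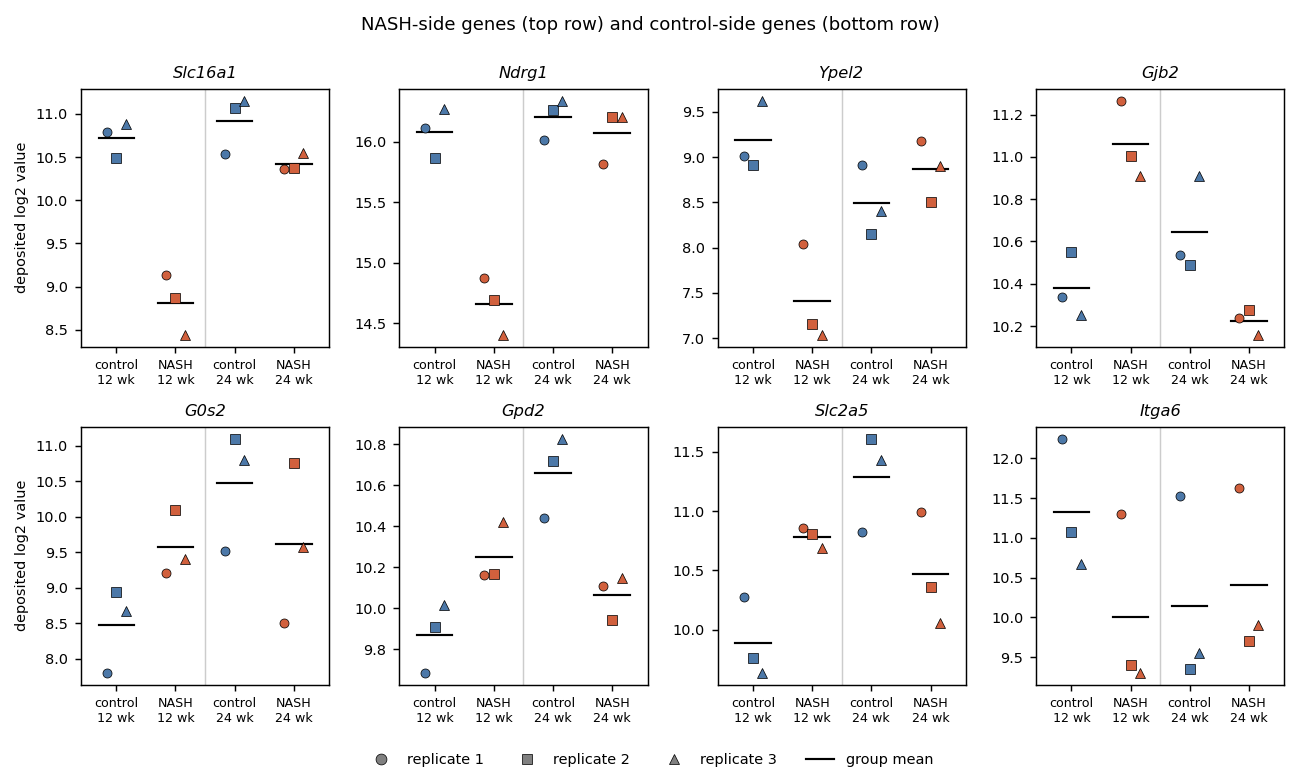
Deposited log2 values of 4 genes whose change with time was larger in NASH mice (top row) and of 4 whose change was larger in controls (bottom row); symbols as replicate numbers, bars as group means. For Slc16a1, Ndrg1 and Ypel2 the 12-week NASH libraries lie below the other 9, and for G0s2, Gpd2 and Slc2a5 the 24-week controls have the highest mean.

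Of the 60 lists and families measured, adipocyte markers had the median furthest from 0. All 16 of 16 listed markers were measured and all 16 were below 0, with a median of -3.37 against 0.09 over all genes. At an unadjusted p under 0.05 with the block 13 were below 0 (all genes 2.78%), and none was called. The control side moved in 14 (35.8% of all genes). The list median was 2.89 for the change in controls and -0.89 for the change in NASH mice. Within numbers 1, 2 and 3 the median interaction was -5.39, -1.51 and -1.62.

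Cfd, which encodes the adipocyte protease adipsin, showed how uneven the libraries were. At 12 weeks its values were 8.66, 3.34 and 1.67 in the controls and 9.91, 7.41 and 4.94 in the NASH mice. At 24 weeks they were 12.98, 8.01 and 8.58 in the controls and 2.98, 8.15 and 4.84 in the NASH mice. The highest value was in replicate 1 of the 24-week controls and the groups overlapped at both times. The interaction was -7.40 ± 2.87 (SE) (adjusted p = 1 without and 0.258 with the replicate block).

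Plin4, a lipid droplet coat protein, read 5.50, 5.19 and 3.40 in the controls and 7.13, 6.06 and 4.47 in the NASH mice early. Its late values were 9.96, 8.07 and 7.96 in the controls and 5.75, 7.29 and 6.59 in the NASH mice. Late controls were above every other library and late NASH libraries below all of them. Controls rose by 3.97 (called with the block), and the interaction was -3.31 ± 1.12 (SE) (adjusted p = 1 without and 0.192 with the replicate block). Cidec, Pnpla2 (the lipase ATGL) and Fabp4 gave -2.50, -0.84 and -2.34, with adjusted p of 0.232, 0.24 and 0.245 under the block. Ucp1, the uncoupling protein of brown fat, reached 11.88 in replicate 1 of the 24-week controls and lay at 2.34 to 5.92 in the other 11 libraries. Cox8b, a respiratory chain subunit of muscle and brown fat, was at 9.04 in that library, and its interaction of -4.09 was the lowest of the respiratory chain list.

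Summed over the 16 markers, the log2 level was 14.71 to 15.64 in the 24-week controls, highest in replicate 1, and 13.27 to 14.39 in the 24-week NASH libraries. At 12 weeks it was 13.34 to 14.82 in controls and 13.82 to 15.18 in NASH, so the late groups were apart and the early groups overlapped. The sum rests mainly on Lpl, a lipase that other cell types also express, while the fat hormones Lep and Adipoq had group means of 5.54 ± 1.27 and 8.70 ± 1.56 (SD) in the 24-week controls and 2.13 ± 2.84 and 4.88 ± 2.69 in NASH. Without replicate 1 of the 24-week controls the list median was -2.17, and without replicate 1 of every group it was -1.80, each over 1.5 times smaller in size, with all 16 genes below 0 in both. Without other single libraries it was -3.98 to -2.63. In bulk tissue a change in the number of cells of a type and a change of RNA per cell cannot be told apart, and the labels do not give the fat content of the samples; its part in these values was not tested.

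**Figure D4:**
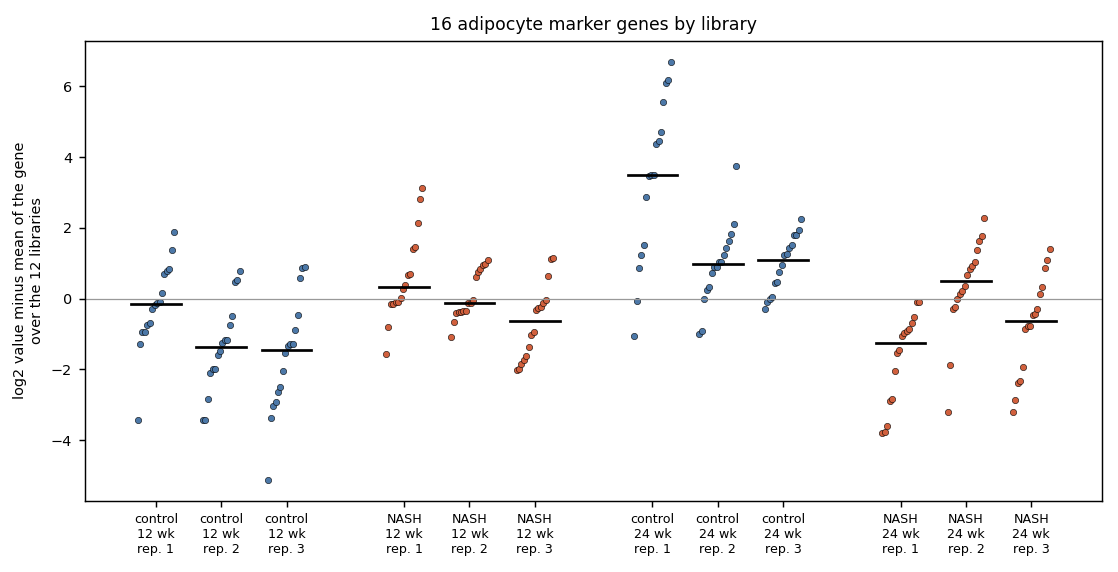
The 16 adipocyte markers in each library, as log2 value minus the mean of the gene over the 12 libraries; points are genes, bars medians. Replicate 1 of the 24-week controls has the highest median, and the medians of the 24-week controls lie above those of the 24-week NASH libraries.

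Immediate early genes switch on within minutes of a stimulus. Of 15 measured (19 listed), 10 were below 0. At an unadjusted p under 0.05 with the block 3 were below 0 (20%, all genes 2.78%), namely Junb, Jun and Ier2, and 0 above. The median was -0.22 over all libraries, -0.64, -0.40 and 0.22 within numbers 1, 2 and 3, and 0.01 with replicates 2 and 3 only. Junb gave -1.86, Jun -1.07 and Ier2 -1.49, all 3 on the control side, with adjusted p of 0.186, 0.248 and 0.294 under the block. Controls of 24 weeks were above controls of 12 weeks in every library for these 3 genes.

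Genes of RNA processing had interactions above 0. Of 34 splicing and RNA binding genes 31 were above 0, with a median of 0.39, and 15 of them had an unadjusted p under 0.05 with the block (all genes 10.0%), none below 0. None was called. Ddx17, an RNA helicase of splicing complexes, read 11.41, 11.24 and 11.13 in the controls and 10.92, 10.47 and 10.86 in the NASH mice at 12 weeks. At 24 weeks it read 11.21, 10.64 and 10.66 in the controls and 11.39, 11.08 and 10.94 in the NASH mice. NASH was below every control early and overlapped late, and the interaction was 0.81 ± 0.27 (SE) (adjusted p = 1 without and 0.137 with the replicate block). Luc7l3, an SR-like splicing protein, gave 0.90 and Hnrnpu, a nuclear RNA binding protein, 0.48.

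Families taken by gene symbol went both ways. Medians were -0.14 for 11 histone genes, -0.04 for 37 mitochondrial carriers, 0.02 for 231 solute carriers and 0.10 for 39 ABC transporters. The 3 families with the highest medians are described here, chosen after their values were seen. Among 220 Zfp zinc finger genes 172 were above 0 (median 0.24). At an unadjusted p under 0.05 with the block 43 were above 0 (19.5%, all genes 10.0%) and 2 below (0.909%, all genes 2.78%). Among 49 DEAD and DEAH box helicases 41 were above 0 (median 0.22), 12 at that p (24.5%), and 0 were below 0 at it. Of 39 ubiquitin-specific proteases 36 were above 0 (median 0.18). At that p 5 were above 0 (12.8%, near the share of all genes) and 0 below. Zfp397 gave 0.91, Dhx33 0.75 and Usp3 0.46, none of them called. The median over all genes, 0.09, lies above 0 as well, and 62.3% of genes did. It was within 0.01 of 0 with median-of-ratios scaling, while the medians of these 3 families were above 0 under that scaling.

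The respiratory chain lay on the other side. Of 79 subunits of complexes I to V, all measured, 7 were above 0 and 72 below, with a median of -0.21 and nearly the same value within each number, -0.20, -0.23 and -0.18. At an unadjusted p under 0.05 with the block 15 were below 0 (all genes 2.78%) and 0 above, and none was called. NASH libraries were above all controls in 59 of the 79 at 12 weeks (all genes 8.14%) and in 4 at 24 weeks (all genes 4.56%). The list's median NASH effect was 0.36 early and 0.14 late. These effects and the counts of genes with libraries apart were not corrected for the length and GC trend described below. The NASH side moved in 40 genes, the control side in 19 and both in 20 (all genes 24.0%, 35.8% and 40.3%).

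Ndufb4, a complex I subunit, read 10.78, 11.48 and 11.29 in the controls and 11.52, 12.02 and 11.90 in the NASH mice at 12 weeks. At 24 weeks it read 11.21, 12.05 and 11.51 in the controls and 11.30, 11.86 and 11.53 in the NASH mice. Early NASH libraries were above all controls and the late groups overlapped (interaction -0.66 ± 0.35 (SE), adjusted p = 1 without and 0.147 with the replicate block). Cox7c of complex IV gave -0.48 and Uqcrq of complex III -0.78. Mitochondrial ribosomal proteins had a median of -0.14 with 57 of 78 below 0. At an unadjusted p under 0.05 with the block 5 were below 0 (6.41%, all genes 2.78%). For cytosolic ribosomal proteins, which build the ribosome outside mitochondria, the median was -0.11, or 0.03 after the length and GC trend below was removed, with 66 of 82 below 0, and -0.36, -0.07 and 0.19 within the numbers. It was 0.01 without replicate 2 of the 24-week controls.

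Transcript length and base content moved with these lists. The interaction correlated across genes with log2 transcript length (Pearson's r = 0.24) and with GC content (r = -0.18), a description over genes that share 12 libraries. For the NASH effect at 12 weeks, r was -0.41 with log2 length and 0.29 with GC content. For the effect at 24 weeks, r was -0.22 and 0.13. The median interaction went from 0.17 in the fifth of genes with the lowest GC content to -0.02 in the fifth with the highest. Respiratory chain subunits had a median length of 692 bases, and splicing genes, Zfp genes and ubiquitin-specific proteases 3042, 3755 and 4442 bases, against 2893.5 over all genes. With a smooth trend on length and GC content removed from each library, the medians were -0.09 for the respiratory chain (18 of 79 above 0), 0.21 for splicing (30 of 34), 0.11 for Zfp genes (139 of 220), 0.10 for helicases (30 of 49) and -0.02 for proteases (16 of 39). The median over all genes was then 0.01. For clock and adipocyte genes the values were 2.42 for Npas2, -5.54 for Dbp, 3.25 for Nfil3 and -3.37 for the adipocyte median.

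**Figure D5:**
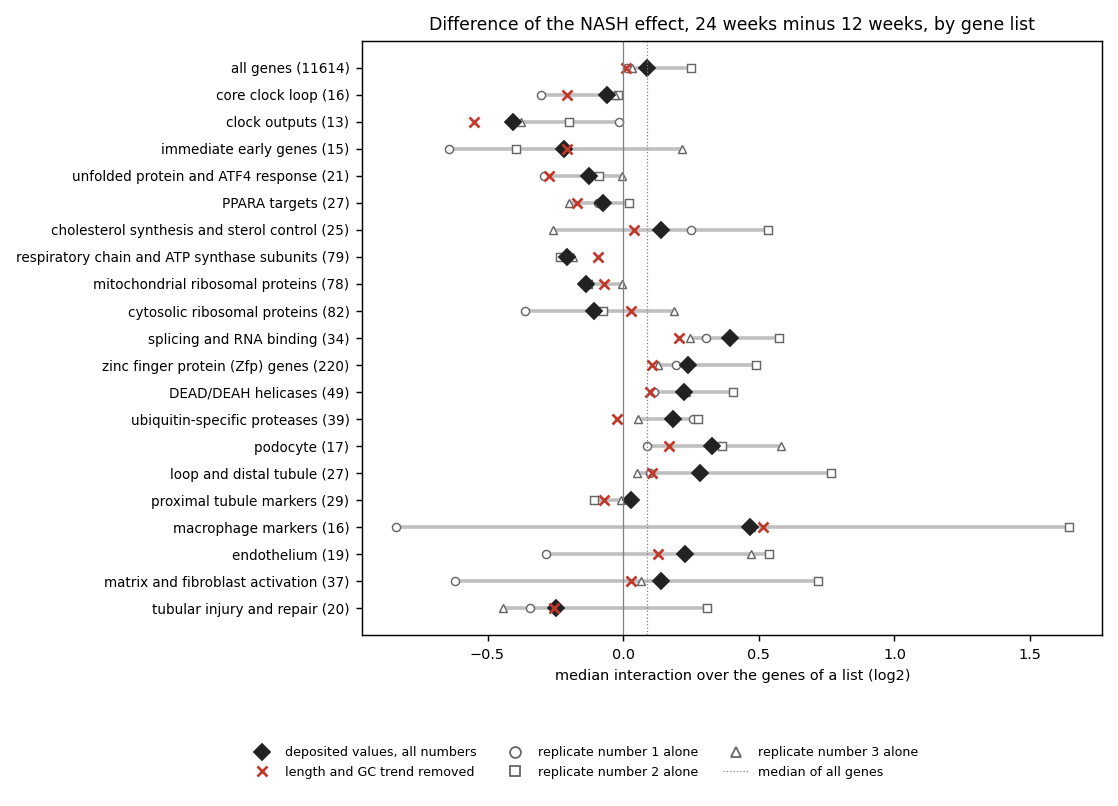
Median interaction (log2) of 20 gene lists and of all genes, with the number of measured genes in brackets: diamonds for the deposited values, crosses after removal of the length and GC trend, open symbols for each replicate number alone. Respiratory chain symbols for the 3 numbers lie together at about -0.20, while macrophage, matrix and endothelial lists span 0.

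Markers of kidney cell types were read next. Of 17 podocyte genes, which form the glomerular filter, 15 were above 0 (median 0.33). At an unadjusted p under 0.05 with the block 6 were above 0 (35.3%, all genes 10.0%) and none below. The sign of the median rested on 1 library: without the block it was -0.05 without replicate 1 of NASH at 24 weeks and 0.70 without replicate 1 of the 24-week controls. With the block it was 0.23 to 0.47 with 1 library left out. Npnt gave 0.99, Plce1 0.46, Col4a3 0.45 and Podxl 0.55. The summed podocyte level was 14.69 to 14.88 in replicate 1 of every group and 13.55 to 14.16 elsewhere, so replicate 1 was the highest library of each group. The part of glomerular content in these values was not tested. In the loop of Henle and distal tubule 19 of 27 were above 0 (median 0.28). Of these, 5 had an unadjusted p under 0.05 with the block (18.5%, all genes 10.0%). Without the block this median was -0.12 without replicate 1 of NASH at 24 weeks, -0.05 without replicate 1 of the 12-week controls and 0.68 without replicate 1 of the 24-week controls, and with the block it was 0.14 to 0.46. Slc12a3, the thiazide-sensitive salt transporter, gave 0.83 with an early NASH effect of -0.66 and a late one of 0.16, on the NASH side. Proximal tubule and collecting duct medians were 0.03 (29 genes; -0.07 with the length and GC trend removed) and 0.07 (20 genes; -0.02 with quantile normalization, and -0.16 to 0.51 with 1 library left out).

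Macrophage markers had a median of 0.47, with 14 of 16 above 0. The NASH side moved in 10 (all genes 24.0%) and the control side in 0 (all genes 35.8%). Their values within the numbers were -0.84, 1.64 and 0.47, so number 1 went the other way. At an unadjusted p under 0.05 with the block 2 genes were above 0 (12.5%, near the 10.0% of all genes). The median was 0.14 without replicate 2 of NASH at 24 weeks and 0.18 without replicate 2 of NASH at 12 weeks (0.11 and 0.03 with the block), 0.20 without replicate 3 of the 24-week controls, and up to 0.79 without other libraries. Cd68, a macrophage lysosome protein, gave 1.56 and Tyrobp, an immune receptor adaptor, 0.89 (adjusted p of 0.423 and 0.329 under the block). Endothelial genes had a median of 0.23 with 0 at an unadjusted p under 0.05, and matrix genes 0.14, with -0.62, 0.72 and 0.07 within the numbers. With 1 library left out these medians ran from -0.16 to 0.67 and from -0.11 to 0.49, lowest without replicate 3 and highest without replicate 1 of the 24-week controls. Col1a1, the main fibrillar collagen, gave 0.41 ± 0.55 (SE), below 0 within number 1 and 2.22 and 0.01 within numbers 2 and 3. Havcr1, the injury marker KIM-1, gave -0.70 ± 1.38 (SE) and 1.72, -2.96 and -0.86. Neither kept 1 sign within the numbers.

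PPARA target and cholesterol medians differed with time in the same direction in both arms. The 27 measured PPARA targets, genes of fat burning switched on in fasting, had median changes of 0.94 in controls and 0.90 in NASH mice, and a median interaction of -0.07, with 0 genes at an unadjusted p under 0.05. The difference with time lay in numbers 2 and 3: the summed log2 level was 16.49 and 16.61 in replicate 1 of the controls at 12 and 24 weeks, against 16.58 and 18.21 in replicate 3, and 16.60 and 16.72 in replicate 1 of NASH, against 16.66 and 18.20 in replicate 3. The median interaction was -0.37 without replicate 1 of the 24-week controls and 0.46 without replicate 1 of NASH at 24 weeks. Pdk4, which restrains glucose oxidation, differed by 3.51 and 2.68, Plin2, a lipid droplet coat, by 1.31 and 0.88 (interaction -0.43 ± 0.64 (SE)), and Cpt1a, the gate of fatty acid oxidation, by 0.49 and 0.36 (interaction -0.14 ± 0.33 (SE)). Cholesterol synthesis genes had medians of -0.64 and -0.44, with an interaction of 0.14 over 25 genes. That value was -0.05 without replicate 2 and 0.42 without replicate 1 of the 24-week controls.

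Other genes of renal metabolism differed between the times without passing the test. Pck1, which opens gluconeogenesis, had a NASH effect of 1.88 early and 0.30 late, with the control side moving by 2.13 (interaction -1.58 ± 0.71 (SE), adjusted p = 1 without and 0.369 with the replicate block). Ppard, a lipid-sensing nuclear receptor, gave 1.76 ± 0.80 (SE), with 0.20, 2.15 and 2.93 within the numbers. Ttr, the carrier of thyroid hormone and retinol-binding protein, was above controls in NASH at both times, by 2.77 and 1.35, with no overlap, and its interaction was -1.42 ± 1.04 (SE) (adjusted p = 1 without and 0.506 with the replicate block). Rdh10, an enzyme that oxidizes retinol, gave 0.99 ± 0.27 (SE) (adjusted p = 1 without and 0.0845 with the replicate block). Asns, the asparagine synthetase induced by ATF4, gave -1.40 ± 0.48 (SE), the smallest p of 21 measured unfolded protein and ATF4 response genes. The proximal tubule gene Slc34a1 had an interaction of 0.12 ± 0.26 (SE), and Xist 0.73 ± 4.03 (SE) without the block and an SE of 0.61 with it.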

How the data were processed

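RNA of mouse kidney cortex was sequenced in 12 libraries. Log2 values for 11614 genes were used as deposited; the submitters' processing notes name BWA, limma and mm10, and how the authors scaled the values is not given in the sources used here. Depth (7170000 to 14100000 reads per library) was estimated from the steps between low values. Members, lists and rules were chosen with earlier results of these data known. Groups came from the sample labels.

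Per gene, limma 3.58.1 in R 4.3.3 was fitted to the 4 group means with a mean-variance trend. Tests were two-sided, with Benjamini-Hochberg adjustment over all genes and calls at an adjusted p under 0.05. Adjusted p given as without or with the replicate block come from this fit or from its repeat with the replicate number as a block. Those given for left-out libraries, other scalings, replicates 2 and 3 alone or the block of 2 levels come from refits in those settings. The block rests on the data alone: deviations from group means correlated at 0.19 to 0.74 in 18 of 18 same-numbered pairs. Numbers 2 and 3 also correlated with each other, in 12 of 12 pairs. Their median was 0.36, against 0.40 within number 2 and 0.43 within number 3. The data thus set number 1 apart and hardly tell number 2 from number 3.

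Named genes were, in each fit, the 5 per direction with the smallest p among genes above the median level with 1 sign in all 3 numbers, the 2 to 4 members of each described list with the smallest p under the block, and a fixed set. Some members named for contrast fall outside this rule and were chosen after their values were seen. GC content came from GENCODE M21 transcripts for 99.72% of genes, length from the gene annotation given with the deposited values, and promoter windows from RefSeq. Alternatives were other scalings, filters, a fit without the trend, and left-out libraries. The script was tested on simulated data. The counts of mice come from the labels.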

Additional observations from a re-analysis of the deposited data

Results flagged for a closer look

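Nfil3, the repressor of D-box genes, was the gene whose NASH effect differed between 24 and 12 weeks by a test of the difference itself, with an interaction of 3.243 on the log2 scale and an adjusted p of 0.034 by limma with the replicate block. Without the block the adjusted p was 0.808. Over the settings tried with the block and all 12 libraries the adjusted p was 0.0044 to 0.0463. The highest came from a block of 2 levels chosen after seeing the data. With replicates 2 and 3 alone, fitted without the block, it was 0.0177. With the block and 1 library left out, the call was kept in 5 of 12 fits. It was lost in the other 7, at adjusted p of up to 0.222. The interaction had 1 sign in 3 of 3 replicate numbers.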

How the results depend on the processing

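Calls depended on the replicate block and on replicate 1. For the interaction, 0 genes were called without the block in any scaling or filter tried on all 12 libraries. With the block 1 gene was called, and also 1 with the length and GC trend removed. Quantile normalization with the block gave 4 and median-of-ratios scaling 1. A replicate block of 2 levels (number 1 against 2 and 3), chosen after seeing the data, gave 10. Replicates 2 and 3 only, fitted without the block, gave 73. For the change in controls the counts with the block were 20, 32 with quantile normalization, 4 with median-of-ratios scaling and 0 with the trend removed. They were 755 with replicates 2 and 3 only (no block) and 37 with the block of 2 levels. For the change in NASH mice they were 3, 4, 1, 1, 541 and 4 in that order. With 1 library left out, with or without the block, the interaction gave 0 to 29 calls (29 without replicate 1 of the 24-week controls), controls 0 to 434 (without the same library) and NASH mice 0 to 170 (without replicate 1 of NASH at 12 weeks). The share of genes on the control side was 25.85% without replicate 1 of NASH at 12 weeks and 49.44% without replicate 1 of the 24-week controls. The cause of these shifts was not tested. Of 65 genes followed through these fits, 5 changed sign when 1 library was left out: Havcr1 (-1.785 to 0.2373), Col1a1 (-0.05183 to 0.7583), Plin2 (-0.9403 to 0.04463), Cpt1a (-0.3732 to 0.08863) and Xist (-1.761 to 3.053). Some genes named in the text, such as Cry1, Per1, Cd68 and Tyrobp, were not among the 65. On the deposited scaling, the block by replicate number changed no other call of the interaction than that of Nfil3; with quantile normalization it also added Itga6, Gpd2 and Npas2, and the block of 2 levels called 9 genes beside Nfil3. With 3 libraries per group, small differences were not detectable.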
